A study of Mus musculus with 12 samples.

Results

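The dentate granule cell markers are 8 genes chosen by name: Prox1, C1ql2, Dsp, Tdo2, Lct, Calb1, Plk5 and Trpc6. They were matched by Ensembl gene identifier among the 24590 genes listed in hippocampal RNA-seq of 12 mice. All 8 were listed in every mouse and all 8 reached the mean of 1 FPKM that was asked of a gene for testing, as did 14328 genes in all. FPKM, an abundance of fragments scaled by gene length and library size, holds no read count, so the depth behind a value is unknown. Values below are scaled FPKM, the deposited FPKM divided by a factor per library that lies between 0.919 and 1.0698.

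The mice come from 2 lines and form 4 groups of 3. Each line has its own deletion in Shank2, which encodes a postsynaptic scaffold protein of excitatory synapses. In the exon 7 line, whose knockouts lack exon 7, these are the knockouts KO969, KO990 and KO994 and the wild types WT628, WT993 and WT999. In the exon 6-7 line, whose knockouts lack exons 6 and 7, they are the knockouts KO776, KO777 and KO864 and the wild types WT778, WT809 and WT865. The labels give the strain of all mice as mixed C57BL/6J and C57BL/6N and name no other allele and no agent. Per the labels' protocols the study used male knockouts and wild-type littermates of 8 to 15 weeks, and the age of a single animal is not stated. No Cre driver is named. RNA came from whole hippocampi, and all genes of the CA1, CA3, interneuron and dentate lists used below were listed in every mouse. Granule cells are 1 cell type among many there, and fewer granule cells and less RNA per granule cell cannot be told apart in any value below. Each mouse has its own number, so that the spread behind the p-values is that between animals, each with its library.

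The gene ENSMUSG00000095746 was not listed in 4 libraries, WT628 and KO969 in the exon 7 line and WT778 and KO776 in the other, and was listed in the remaining 8. The 4 are called set A and the 8 set B. Each group has 1 set A mouse, so that genotype is balanced over the sets. Mitochondrial transcripts made up 13.6 and 14.3% of the summed FPKM in set A of the exon 7 line, against 10.3 to 10.9% in set B. In the exon 6-7 line they made up 6.72 to 7.39% in set A, against 6.22 to 6.81% in set B. Shank2 itself averaged 40.4 ± 6.29 scaled FPKM in exon 7 knockouts and 40.8 ± 4.24 in exon 7 wild types (SD, n = 3 each), and the log2 fold change was −0.02. It averaged 6.46 ± 0.483 in exon 6-7 knockouts and 14.4 ± 0.576 in exon 6-7 wild types (SD, n = 3 each), with a log2 fold change of −1.04 (limma adjusted p = 0.00972).

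Granule cells are the principal excitatory neurons of the dentate gyrus. They receive input from the entorhinal cortex and send their axons, the mossy fibres, to CA3 pyramidal cells and to mossy cells of the hilus. New granule cells are added in adult mice, and immature ones pass through a stage that expresses Dcx and Calb2 before they express Calb1. Prox1 encodes a homeodomain transcription factor that sets and keeps granule cell identity, and its protein is a standard nuclear marker of these cells. C1ql2 encodes a secreted C1q-like protein of mossy fibre synapses, and Dsp encodes desmoplakin, which ties desmosomes to intermediate filaments. Tdo2 encodes a dioxygenase that opens the ring of tryptophan, and Lct encodes lactase, best known from the intestinal brush border. Calb1 encodes the calcium buffer calbindin, which CA1 pyramidal cells and some interneurons also express. Plk5 encodes a member of the polo-like kinase family, and Trpc6 a cation channel opened by diacylglycerol.

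The promoters of 4 genes are shown. They are those of the 3 markers in which the knockouts of a line did not overlap the wild types (C1ql2, Dsp and Lct) and that of Prox1, a standard marker of the cell type. The sequences are RefSeq windows on GRCm38.p6 that run from 250 bases before to 50 bases after the annotated start of the gene, 5′ to 3′ on the strand of the gene. The windows are chr1:190170778-190171077 on the minus strand for Prox1, chr1:120340332-120340631 on the plus strand for C1ql2, chr13:38151044-38151343 on the plus strand for Dsp and chr1:128328269-128328568 on the minus strand for Lct. Capitals mark the motifs that were searched on both strands, none of which overlap another: the E-box CAGATG that NeuroD factors bind, the TATA box TATAAA and the GC box GGGCGG.
Prox1: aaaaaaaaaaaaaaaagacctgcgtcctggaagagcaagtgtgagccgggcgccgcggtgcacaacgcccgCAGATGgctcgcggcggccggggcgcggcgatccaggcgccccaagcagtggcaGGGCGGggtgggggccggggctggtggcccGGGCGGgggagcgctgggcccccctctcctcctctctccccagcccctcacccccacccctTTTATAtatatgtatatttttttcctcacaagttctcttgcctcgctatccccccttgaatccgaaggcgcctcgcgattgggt
C1ql2: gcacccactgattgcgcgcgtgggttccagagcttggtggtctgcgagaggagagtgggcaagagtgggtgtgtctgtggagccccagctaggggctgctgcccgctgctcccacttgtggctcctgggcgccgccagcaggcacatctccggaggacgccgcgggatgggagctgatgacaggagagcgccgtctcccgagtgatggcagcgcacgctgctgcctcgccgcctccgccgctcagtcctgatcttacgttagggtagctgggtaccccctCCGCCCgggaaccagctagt
Dsp: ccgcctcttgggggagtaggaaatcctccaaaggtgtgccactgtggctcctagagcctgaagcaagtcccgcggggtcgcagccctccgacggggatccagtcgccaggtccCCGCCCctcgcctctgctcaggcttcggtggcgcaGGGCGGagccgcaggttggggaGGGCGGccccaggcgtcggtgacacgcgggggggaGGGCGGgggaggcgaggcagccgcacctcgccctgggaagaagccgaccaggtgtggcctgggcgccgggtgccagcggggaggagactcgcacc
Lct: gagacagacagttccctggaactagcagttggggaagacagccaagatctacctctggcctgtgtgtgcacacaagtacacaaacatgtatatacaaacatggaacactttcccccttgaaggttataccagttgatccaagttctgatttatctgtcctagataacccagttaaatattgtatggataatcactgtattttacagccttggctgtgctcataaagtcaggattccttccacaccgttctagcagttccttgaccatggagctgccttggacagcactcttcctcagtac
The Prox1 window held 1 E-box, 1 TATA box on the opposite strand and 2 GC boxes. The C1ql2 window held 1 GC box, after the start, the Dsp window held 4 GC boxes and the Lct window held none of the 3 motifs. Sequences were found for 7 of the 8 markers, all except Calb1. Of these 7 windows 1 held the E-box, 2 the TATA box and 4 the GC box. Over the 32851 promoter windows of the same length, 17.2% held the E-box, 13.6% the TATA box and 35.7% the GC box. The matches describe letters only and were not tested as binding sites.

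The genes lie on 6 chromosomes (mm10 coordinates of GENCODE M21). Prox1 (ENSMUSG00000010175) spans 190118035 to 190170714 of chromosome 1 on the minus strand, C1ql2 (ENSMUSG00000036907) spans 120340582 to 120343174 of chromosome 1 on the plus strand, and Lct (ENSMUSG00000026354) spans 128284756 to 128328318 of chromosome 1 on the minus strand. Dsp (ENSMUSG00000054889) spans 38151294 to 38198577 of chromosome 13 on the plus strand and Tdo2 (ENSMUSG00000028011) spans 81957090 to 81976202 of chromosome 3 on the minus strand. Calb1 (ENSMUSG00000028222) spans 15881264 to 15908064 of chromosome 4 on the plus strand, Plk5 (ENSMUSG00000035486) spans 80356459 to 80365489 of chromosome 10 on the plus strand and Trpc6 (ENSMUSG00000031997) spans 8544142 to 8680741 of chromosome 9 on the plus strand. All are annotated as protein-coding, and each value covers all exons of its gene. Whether the counting used strand is not stated in the labels or files, so reads of a gene and of an overlapping antisense gene may be mixed. The antisense gene Prox1os shares 133 exon bases with Prox1, 1.59% of the Prox1 exons, and Gm10129, which was not listed in any mouse, shares 499 bases with Dsp, 5.17% of its exons. No exon of the other 6 markers is shared with another gene.

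**Figure D1:**
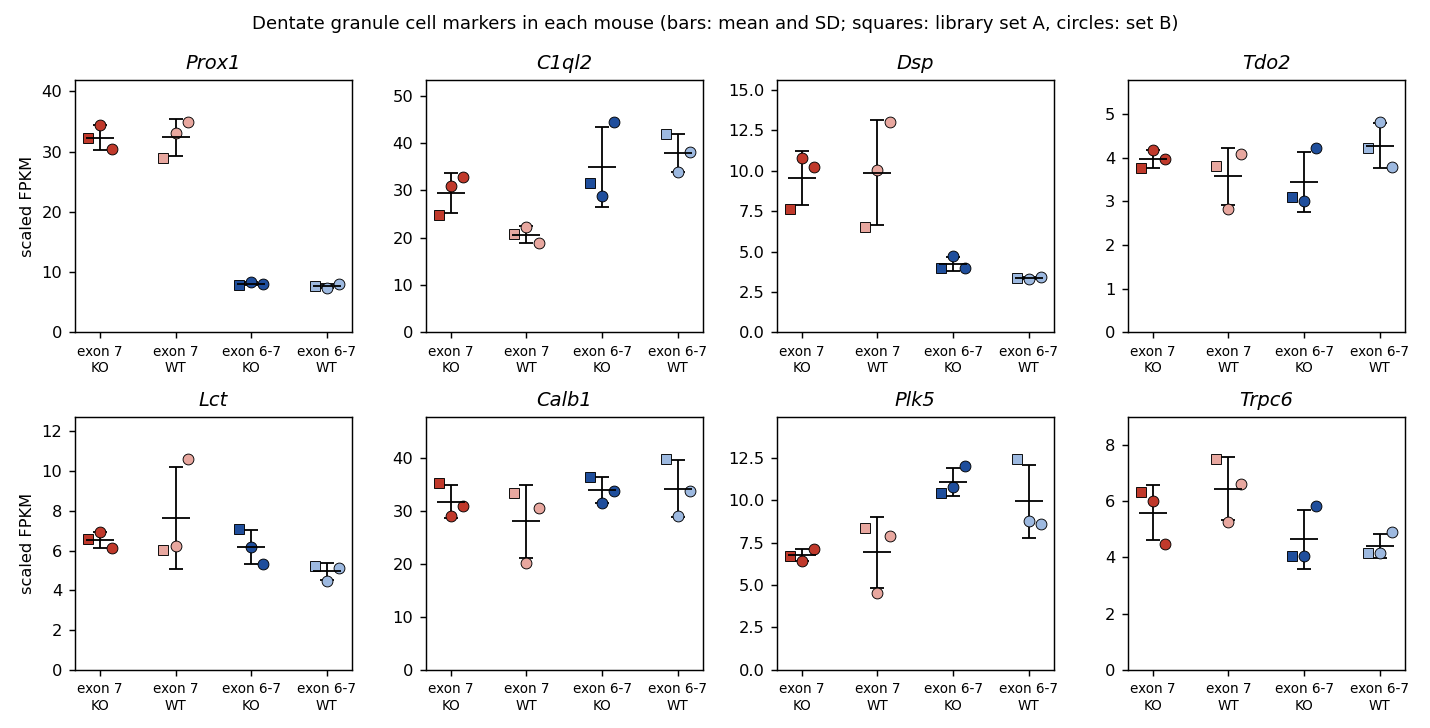
Scaled FPKM (y axis, from 0) of each of the 8 markers in each mouse, by group (x axis), with the mean and SD of the 3 mice as bars and set A mice as squares. The 3 exon 7 knockouts lie above the 3 exon 7 wild types in C1ql2, the 3 exon 6-7 knockouts lie above the 3 exon 6-7 wild types in Dsp and Lct, and Prox1 and Dsp are higher in every mouse of the exon 7 line than in any mouse of the exon 6-7 line.

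The first question is whether the loss of Shank2 exon 7 went with a change in the granule cell markers. No marker passed the test across all genes (limma adjusted p = 1 for all 8). In this comparison 0% of the 14328 genes passed, and 3.5% had an unadjusted p under 0.05, among them 1 of the 8 markers, C1ql2. C1ql2 was the marker with the largest difference, 0.49 on the log2 scale, and the only 1 of the 8 whose knockouts all lay above the wild types. The same was so for 3.25% of all genes. No marker had all knockouts below the wild types, and the share of all genes without overlap in either direction is not given here. With 3 mice against 3 the exact permutation test of a single gene has 20 relabellings and cannot give a p below 0.1.

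C1ql2 was at 24.8, 30.9 and 32.8 scaled FPKM in the exon 7 knockouts KO969, KO990 and KO994, against 20.7, 22.3 and 18.9 in the exon 7 wild types WT628, WT993 and WT999. Every knockout lay above every wild type, and the lowest knockout, KO969, was of set A. The means were 29.5 ± 4.17 in exon 7 knockouts and 20.7 ± 1.71 in exon 7 wild types (SD, n = 3 each), a ratio of 1.43. The log2 fold change of scaled FPKM + 1 was 0.49 (SE 0.158, 95% interval 0.14 to 0.83, limma unadjusted p = 0.0103, adjusted p = 1, two-sided exact permutation p = 0.1). By unadjusted p it stood at place 86 of the 14328 genes. Within set A the knockout exceeded the wild type by 0.25 on the log2 scale (1 mouse each) and within set B by 0.61 (2 mice each).

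Prox1 was at 32.2, 34.4 and 30.3 scaled FPKM in the exon 7 knockouts, against 29.0, 33.1 and 34.9 in the exon 7 wild types, in the same order of mice. The groups overlapped, and their means were 32.3 ± 2.04 in knockouts and 32.3 ± 3.03 in wild types (SD, n = 3 each). Their log2 fold change was 0.00 with a 95% interval of −0.19 to 0.19. Dsp was at 7.66, 10.8 and 10.2 scaled FPKM in the exon 7 knockouts, against 6.54, 10.03 and 13.0 in the exon 7 wild types. In both genotypes the set A mouse, KO969 or WT628, was the lowest. Dsp had a log2 fold change of −0.01 (95% interval −0.43 to 0.41).

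Tdo2, Lct and Plk5 likewise overlapped between genotypes in the exon 7 line. Tdo2 was at 3.77, 4.19 and 3.97 scaled FPKM in the exon 7 knockouts, against 3.80, 2.84 and 4.09 in the exon 7 wild types, a log2 fold change of 0.13 (95% interval −0.18 to 0.44). Lct was at 6.58, 6.92 and 6.11 scaled FPKM in the exon 7 knockouts, against 6.05, 6.25 and 10.6 in the exon 7 wild types, a log2 fold change of −0.16 (95% interval −0.54 to 0.22). WT999 stood above the 5 other mice in Lct, and without it the difference was 0.07. Plk5 was at 6.70, 6.43 and 7.11 scaled FPKM in the exon 7 knockouts, against 8.36, 4.52 and 7.87 in the exon 7 wild types, a log2 fold change of 0.01 (95% interval −0.41 to 0.42).

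The genes of calcium handling showed no separation of the exon 7 genotypes either. Calb1 was at 35.3, 29.1 and 31.0 scaled FPKM in the exon 7 knockouts, against 33.4, 20.2 and 30.6 in the exon 7 wild types. WT993 was the lowest mouse by a wide margin, and without it the log2 fold change was −0.01 in place of 0.20 (95% interval −0.17 to 0.57). Trpc6 was at 6.32, 6.00 and 4.46 scaled FPKM in the exon 7 knockouts, against 7.49, 5.24 and 6.61 in the exon 7 wild types, a log2 fold change of −0.18 (95% interval −0.53 to 0.18). Here KO994 was the lowest mouse and WT628 the highest. The intervals of these 7 genes differed in width, from −0.19 to 0.19 for Prox1, the narrowest, to −0.43 to 0.41 for Dsp, the widest. All 7 held 0, and these mice do not exclude a true difference anywhere inside a gene's own interval.

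The same question for the loss of exons 6 and 7 gave no marker that passed (limma adjusted p = 1 for all 8), where 0.0209% of all genes passed. None of the 8 had an unadjusted p under 0.05, against 4.09% of all genes. Dsp and Lct were the 2 markers whose exon 6-7 knockouts all lay above the exon 6-7 wild types. Without overlap and higher in the knockouts were 4.97% of all genes, and without overlap in either direction 11.3%.

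Dsp was at 3.96, 4.73 and 3.96 scaled FPKM in the exon 6-7 knockouts KO776, KO777 and KO864, against 3.37, 3.30 and 3.42 in the exon 6-7 wild types WT778, WT809 and WT865. The wild types lay close together, and KO777 was the highest of the 6 mice. The means were 4.22 ± 0.443 in exon 6-7 knockouts and 3.37 ± 0.0606 in exon 6-7 wild types (SD, n = 3 each). The log2 fold change was 0.25 (SE 0.193, 95% interval −0.17 to 0.68, limma unadjusted p = 0.215, exact permutation p = 0.1). Between the set A mice the difference was 0.18 (1 mouse each) and between the set B mice 0.29 (2 mice each). The limma spread of Dsp is shared with the exon 7 line, where its values varied more.

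Lct was at 7.07, 6.16 and 5.33 scaled FPKM in the exon 6-7 knockouts, against 5.25, 4.46 and 5.14 in the exon 6-7 wild types. KO864 lay just above the highest wild type, WT778. The means were 6.19 ± 0.873 in exon 6-7 knockouts and 4.95 ± 0.426 in exon 6-7 wild types (SD, n = 3 each). The log2 fold change was 0.27 (SE 0.172, 95% interval −0.11 to 0.65, limma unadjusted p = 0.148, exact permutation p = 0.1). It was 0.37 within set A (1 mouse each) and 0.22 within set B (2 mice each).

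Markers of tissue that borders the hippocampus were uneven in the exon 6-7 line. The summed scaled FPKM of 11 choroid plexus markers was 6802 to 8474 in the exon 6-7 knockouts, against 4003, 8676 and 44.1 in WT778, WT809 and WT865. All 11 lay above 0 in log2 fold change, none passed the test and none was at 0 in any library. The sum of 9 meningeal markers was 275 to 354 in the exon 6-7 knockouts and 136 to 306 in the exon 6-7 wild types, with 9 of 9 above 0 and none passing. Dsp was at 3.30 in WT809, the exon 6-7 wild type with the highest choroid and meningeal sums. It was at 3.42 in WT865, the exon 6-7 wild type with the lowest of both sums. KO777, the mouse of this line with the highest Dsp, at 4.73, also had its highest meningeal sum, 354. KO776 and KO864 had meningeal sums of 295 and 275, both with Dsp at 3.96. Without WT865 the differences of Dsp and Lct were 0.26 and 0.29, and without WT809 they were 0.24 and 0.21. The part of these tissues in the Dsp and Lct values was not tested. In the exon 7 line the choroid sum was 1705 to 2342 in knockouts and 1458 to 1765 in wild types, with 10 of 11 markers above 0 and none passing. The meningeal sum was 150.9 to 184.2 in exon 7 knockouts and 138.4 to 150.8 in exon 7 wild types, just without overlap. Of its 9 markers 8 lay above 0 and none passed. The part of these tissues in the C1ql2 values was not tested.

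The other 6 markers overlapped between exon 6-7 genotypes. Prox1 was at 7.93, 8.33 and 8.03 scaled FPKM in the exon 6-7 knockouts, against 7.66, 7.41 and 8.05 in the exon 6-7 wild types, a log2 fold change of 0.06 (95% interval −0.13 to 0.25). The lowest and the highest of the 6 mice, WT809 and KO777, lay close to each other. C1ql2 was at 31.5, 28.7 and 44.5 scaled FPKM in the exon 6-7 knockouts, against 41.9, 33.8 and 38.1 in the exon 6-7 wild types, a log2 fold change of −0.14 (95% interval −0.49 to 0.21). KO864 was the highest of the 6 mice and the 2 other knockouts were the lowest. Tdo2 was at 3.09, 3.01 and 4.23 scaled FPKM in the exon 6-7 knockouts, against 4.22, 4.82 and 3.79 in the exon 6-7 wild types, a log2 fold change of −0.26 (95% interval −0.56 to 0.05). As in C1ql2, KO776 and KO777 were below all wild types and KO864 was not.

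Calb1 was at 36.5, 31.5 and 33.9 scaled FPKM in the exon 6-7 knockouts, against 39.8, 29.1 and 33.8 in the exon 6-7 wild types, and its log2 fold change was −0.00 (95% interval −0.38 to 0.37). The wild types held both the highest and the lowest value. Plk5 was at 10.4, 10.8 and 12.0 scaled FPKM in the exon 6-7 knockouts, against 12.4, 8.79 and 8.59 in the exon 6-7 wild types, a log2 fold change of 0.16 (95% interval −0.26 to 0.57). The set A wild type WT778 was the highest mouse, and the difference was −0.23 between the set A mice and 0.35 between the set B mice. Trpc6 was at 4.03, 4.05 and 5.84 scaled FPKM in the exon 6-7 knockouts, against 4.16, 4.15 and 4.90 in the exon 6-7 wild types, a log2 fold change of 0.05 (95% interval −0.31 to 0.41). Again KO864 stood above the other mice, and without it the Trpc6 difference was −0.10.

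**Figure D2:**
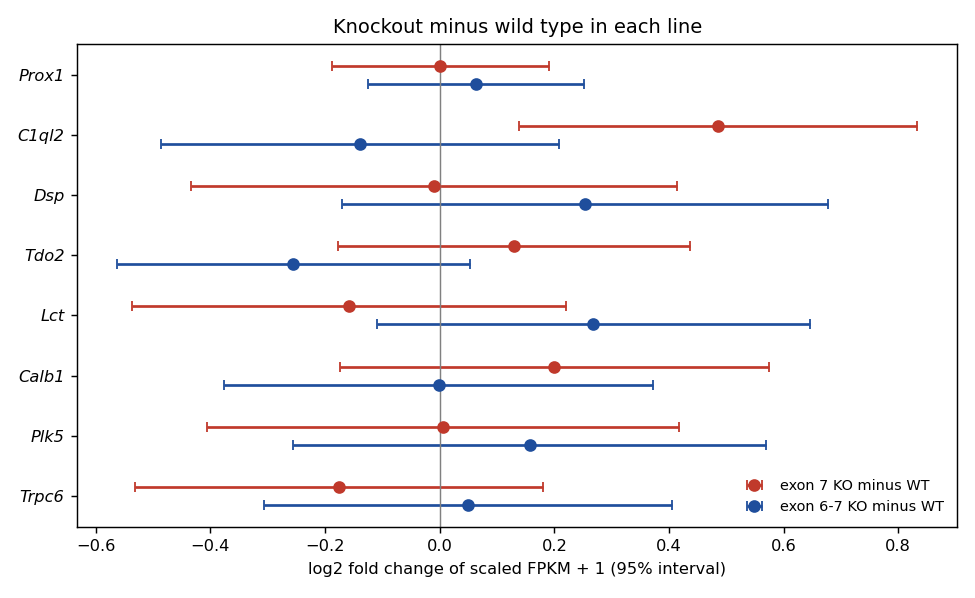
Log2 fold change of scaled FPKM + 1 (x axis) with its 95% interval for each marker (y axis), exon 7 knockout minus wild type in red above exon 6-7 knockout minus wild type in blue. The interval of C1ql2 in the exon 7 line, 0.14 to 0.83, is the only 1 of the 16 that does not cross 0.

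Whether the 2 deletions differed in their effect was tested with the difference of the 2 knockout effects, exon 6-7 minus exon 7. No marker passed (limma adjusted p = 0.9997 for C1ql2), where 0.014% of all genes did. At an unadjusted p under 0.05 there was 1 of the 8, C1ql2, against 3.98% of all genes. C1ql2 differed most, its effect being −0.14 in exon 6-7 knockouts and 0.49 in exon 7 knockouts. The difference of −0.62 had a 95% interval of −1.116 to −0.134 and a limma unadjusted p of 0.0171. Its exact permutation p was 0.045, not adjusted for the 8 markers, over 400 relabellings of genotype within lines. This relabelling presumes no genotype effect in either line, so its p is not a test of equal effects in the 2 lines. For Lct the difference was 0.43 (95% interval −0.11 to 0.96) and for Tdo2 −0.38 (95% interval −0.82 to 0.05), and for the other 5 it was within −0.20 to 0.26. The mean of the 2 knockout effects passed for no marker in limma, against 0.0209% of all genes, and 0 of the 8 had an unadjusted p under 0.05, against 3.57% of all genes. It was 0.17 for C1ql2 (95% interval −0.07 to 0.42), and for the other 7 it was within −0.06 to 0.12.

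The comparison of the wild types of the lines, exon 7 minus exon 6-7, gave much larger differences, in the markers as in all genes. Of the 8 markers 6 passed, where 66.4% of all genes did. Prox1, Dsp, Lct and Trpc6 were higher in exon 7 wild types, where 33.6% of all genes were higher, and C1ql2 and Plk5 were lower, where 32.8% of all genes were lower. The mice of the lines may also differ in when and how their tissue and libraries were made, which the labels do not give, so line and preparation cannot be told apart.

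Prox1 averaged 32.3 ± 3.03 scaled FPKM in exon 7 wild types and 7.71 ± 0.325 in exon 6-7 wild types (SD, n = 3 each), a ratio of 4.196. The log2 fold change was 1.93 (SE 0.0862, limma adjusted p = 4.20e-08). The lowest exon 7 wild type, at 29.0, lay far above the highest exon 6-7 wild type, at 8.05. The log2 difference was 1.79 between the set A mice and 2.004 between the set B mice. Prox1os, the antisense gene that shares exon bases with Prox1, stood at 4.55 ± 0.872 scaled FPKM in exon 7 wild types and 11.3 ± 2.08 in exon 6-7 wild types (SD, n = 3 each), the opposite order.

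Dsp averaged 9.86 ± 3.25 scaled FPKM in exon 7 wild types and 3.37 ± 0.0606 in exon 6-7 wild types (SD, n = 3 each). The log2 fold change was 1.27 (SE 0.193, limma adjusted p = 0.000123). It was 0.79 between the set A mice and 1.51 between the set B mice. C1ql2 averaged 20.7 ± 1.71 scaled FPKM in exon 7 wild types and 38.0 ± 4.03 in exon 6-7 wild types (SD, n = 3 each). Its log2 fold change was −0.84 (SE 0.158, limma adjusted p = 0.000589). It was −0.98 between the set A mice and −0.78 between the set B mice. The exact permutation p was 0.1 in both genes, the smallest this design allows, in a comparison where 66.4% of all genes passed in limma.

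For the remaining markers the line differences were smaller. Lct was higher in exon 7 wild types by 0.50 (limma adjusted p = 0.0232) and Trpc6 by 0.45 (limma adjusted p = 0.0274), and Plk5 had a log2 fold change of −0.49 (limma adjusted p = 0.0386). Between set A mice and between set B mice they were 0.17 and 0.66 for Lct, 0.72 and 0.32 for Trpc6 and −0.52 and −0.47 for Plk5. The calls of Lct and Trpc6 were lost with FPKM as deposited (limma adjusted p = 0.0802 and 0.0922) and that of Plk5 on the TPM scale (limma adjusted p = 0.106). Lct also no longer passed without WT999, at 0.27, or WT809, at 0.44 (limma adjusted p = 0.0774 and 0.0797). Plk5 no longer passed without WT993, at −0.25, WT778, at −0.33, or KO777, at −0.49 (limma adjusted p = 0.159, 0.158 and 0.0527). Trpc6 no longer passed without WT628, WT778, WT809 or WT999, at 0.35 to 0.43 (limma adjusted p between 0.0703 and 0.102). Calb1, at −0.30, and Tdo2, at −0.21, did not pass (limma adjusted p = 0.144 and 0.202). Calb1 passed at −0.45 with FPKM as deposited (limma adjusted p = 0.0258) and at −0.43 without WT628 (limma adjusted p = 0.0490). Relative to the scaling used, FPKM as deposited moved the median line difference of all genes to −0.13 and the TPM scale to 0.13.

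FPKM is a level per length of transcript, by which genes were ordered within each group. The order differed between the lines, and so did the relation of FPKM to exon length across all genes, so that the orders of the 2 lines are not on an equal footing. In exon 7 knockouts Prox1, Calb1 and C1ql2 led, with means of 32.3, 31.8 and 29.5 scaled FPKM and overlapping values, and in exon 7 wild types the same 3 led with 32.3, 28.0 and 20.7. Dsp came next, at 9.55 in exon 7 knockouts and 9.86 in exon 7 wild types. In exon 6-7 knockouts C1ql2 and Calb1 led with 34.9 and 34.0, Plk5 followed with 11.1 and Prox1 came only at the fourth place with 8.10. The order was the same for these 4 in exon 6-7 wild types, with 38.0, 34.2, 9.93 and 7.71. Lct, Trpc6 and Tdo2 were at 3.44 to 7.64 in all 4 groups, and in the exon 6-7 line Dsp, at 4.22 and 3.37, was among them. The values of Lct and Trpc6 overlapped in all 4 groups.

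**Figure D3:**
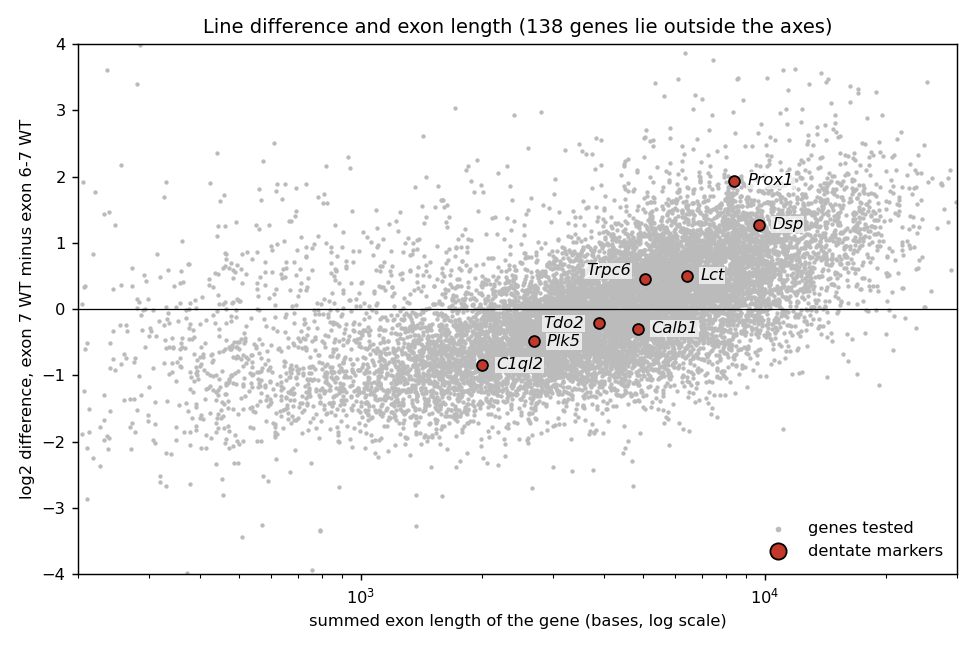
Log2 difference of exon 7 wild types minus exon 6-7 wild types (y axis) against the summed exon length of the gene in bases (x axis, log scale) for the 14168 genes tested that have a length (grey) and the 8 markers (red), with 138 genes outside the axes. The difference becomes more positive with length, and the markers run from C1ql2, 2000 bases and −0.84, to Dsp and Prox1, 9659 and 8390 bases and 1.27 and 1.93.

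The line difference of the markers moved with the length of their exons, as it did for all genes. The markers with exons of 5066 bases or more, Trpc6 (5066), Lct (6406), Prox1 (8390) and Dsp (9659), were higher in exon 7 wild types. Those of 4846 bases or fewer, Calb1 (4846), Tdo2 (3881), Plk5 (2678) and C1ql2 (2000), had differences below 0. Across the 14168 genes with a length, all measured in the same libraries and not independent of each other, Spearman's rho of length and line difference was 0.615. The median line difference was −0.68 in the shortest of 4 equal length classes, then −0.22 and 0.19, and 0.73 in the longest class. When the trend with length was removed in each library, Prox1 kept a difference of 1.35 (limma adjusted p = 7.61e-07) and Dsp of 0.56 (limma adjusted p = 0.0330), and 54.2% of all genes passed. The other 4 calls were lost, with C1ql2 at −0.26 (limma adjusted p = 0.176), Trpc6 at 0.31 (0.124), Lct at 0.15 (0.491) and Plk5 at −0.09 (0.702). Length was also related to the knockout differences, where rho across genes was −0.174 for exon 7 and 0.308 for exon 6-7 knockouts. In the exon 6-7 line the 2 markers without overlap, Dsp and Lct, are the longest and the third longest of the 8. In the refit without the trend Dsp was at 0.20 and Lct at 0.24 there. In the exon 7 line the marker without overlap, C1ql2, is the shortest of the 8, and the same refit gave 0.45. The part of length in the values of C1ql2, Dsp and Lct was not tested beyond this refit.

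**Figure D4:**
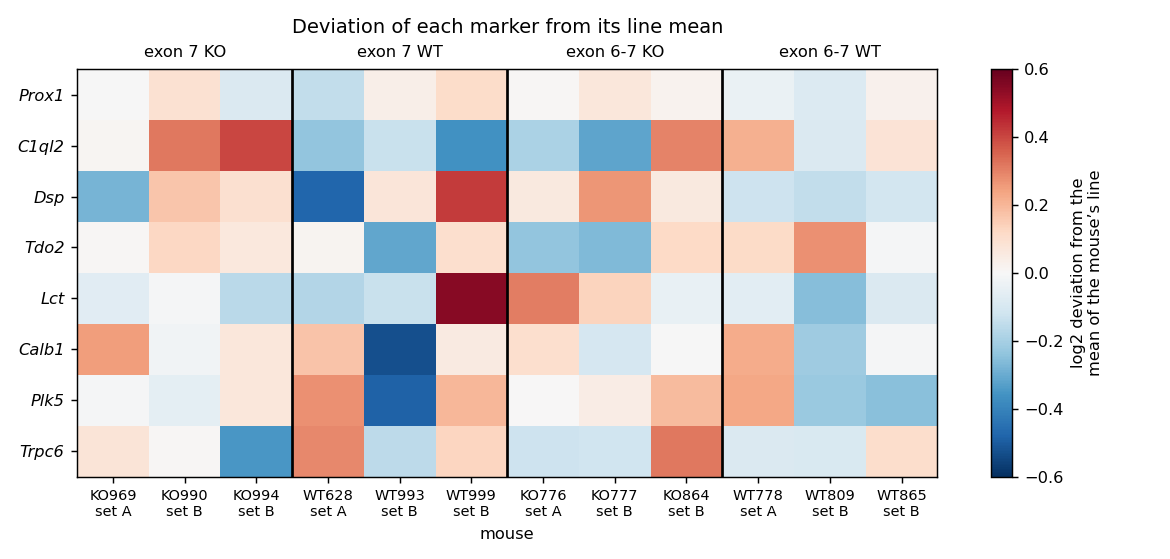
Deviation of log2(scaled FPKM + 1) from the mean of the 6 mice of the same line (colour, blue below and red above, limits ±0.6) for each marker (rows) and mouse (columns, by group, with the library set). WT993 is low in Calb1 and Plk5, WT999 is high in Lct and Dsp, and KO864 is high in C1ql2 and Trpc6.

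Between mice of a line the 8 markers did not all deviate in the same direction. Averaged over the 8, the deviation from the line mean ran from −0.20 in WT993 to 0.15 in WT999, both exon 7 wild types of set B, so the widest gap lay within 1 group. WT993 was low in Calb1 (−0.53), Plk5 (−0.49) and Tdo2 (−0.31), and not in Prox1 (0.04) or Dsp (0.07). WT999 was above the line mean in 7 of the 8 markers, most in Lct (0.54) and Dsp (0.42), and low in C1ql2 (−0.36). In the exon 6-7 line KO864 was the highest on average (0.12), with Trpc6 at 0.32 and C1ql2 at 0.30, and WT809 was the lowest (−0.10), with 1 of 8 markers above the line mean. Prox1 varied least, between −0.15 and 0.11 in the 12 mice, and the summed scaled FPKM of the 8 markers was 123 to 129 in exon 7 knockouts, 104 to 127 in exon 7 wild types, 97.3 to 118 in exon 6-7 knockouts and 95.8 to 119 in exon 6-7 wild types. The genes whose deviations over the 12 libraries were most like the average of the markers were Zfp623 (Pearson r = 0.866), Efnb1 (0.848), Sh3bgrl (0.847), Hectd3 (0.834) and Sos2 (0.823), picked as the highest of all genes tested and given with no test.

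Other genes known to be enriched in the dentate gyrus also had no call within lines. Of all genes 0% passed in exon 7 knockouts and 0.0209% in exon 6-7 knockouts, so a list of this size with no call is the usual outcome. Of a list of 16, 8 had a log2 fold change above 0 in exon 7 knockouts (median 0.01, against −0.01 over all genes) and 14 in exon 6-7 knockouts (median 0.09, against −0.00 over all genes), and none passed in either. The 16 genes tend to be long, and longer genes had the more positive differences in exon 6-7 knockouts over all genes (rho = 0.308 across genes); the part of length in the 14 of 16 was not tested. With the smallest p in the exon 7 line were Glis3, a zinc finger transcription factor, at 0.29, the cytokine gene Il16 at −0.23 and Dock10, a guanine nucleotide exchange factor, at −0.15, none of which passed (limma adjusted p = 1). In the exon 6-7 line they were Ahcyl2 at 0.32, Pitpnm2 at 0.14 and Glis3 at 0.11, none of which passed (limma adjusted p = 1).

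The same list was mostly higher in exon 7 wild types than in exon 6-7 wild types. Of its 16 genes 13 passed as higher and 0 as lower, with a median of 1.119, where 33.6% of all genes were higher. The 13 were Ahcyl2 (2.03), Sema5a (1.73), Stxbp6 (1.69), Rfx3 (1.49), Pdzd2 (1.25), Dock10 (1.17), Npnt (1.15), Glis3 (1.13), C1ql3 (1.11), Il16 (0.93), Maml2 (0.92), Tiam1 (0.88) and Pitpnm2 (0.80), with limma adjusted p between 7.24e-08 and 0.000915. Pdyn, which encodes the dynorphin precursor of mossy fibres, at −0.26, Jun at 0.14 and the zinc transporter gene Slc39a6 at 0.03 did not pass. The 16 genes had a median of 8353.5 exon bases, against 4289 over all genes with a length. With the length trend removed 10 of the 16 passed as higher, with a median of 0.43, where 26.7% of all genes were higher.

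Genes of immature granule cells and their progenitors were also read. Of 13 on the list 10 were tested, and none passed in either knockout comparison. In exon 7 knockouts 9 of the 10 had a log2 fold change above 0 (median 0.13, against −0.01 over all genes). In exon 6-7 knockouts 7 of 10 did (median 0.07, against −0.00 over all genes). The 10 genes had a median of 4069.5 exon bases, against 4289 over all genes with a length. The part of length in these counts was not tested. In the exon 7 line the proliferation gene Top2a was at 0.28 and Sox11, a factor of newborn neurons, at 0.24, and neither passed (limma adjusted p = 1). Dcx, the microtubule protein of migrating young neurons, was at 0.06 in exon 7 knockouts and −0.01 in exon 6-7 knockouts. In the exon 6-7 line Calb2 was at −0.12 and Igfbpl1 at 0.16, and neither passed (limma adjusted p = 1). Between the wild types of the lines Dcx (1.49), Neurod1 (0.73), Tbr1 (0.73), Sox11 (0.67) and Sox4 (0.57) were higher in the exon 7 line and Calb2 (−1.18) was lower, all 6 with limma adjusted p of at most 0.0218, where 66.4% of all genes passed and 33.6% as higher. With the length trend removed 3 of the 10 passed as higher and 2 as lower, where 54.2% of all genes passed and 26.7% as higher. Calb2 is also on the list of mossy cell genes used below, so its values are not particular to immature granule cells.

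Genes of mossy fibre transmission and granule cell maturation, 11 in number, had a median log2 fold change of 0.04 in exon 7 knockouts and −0.02 in exon 6-7 knockouts. None passed, where 0% and 0.0209% of all genes did. In exon 6-7 knockouts 6 lay below 0 and 5 above. Their summed levels there were 2089 to 2134 scaled FPKM, against 2219 to 2293 in exon 6-7 wild types. In the exon 7 line the sums overlapped. Between the wild types 4 passed as higher in the exon 7 line, Grik2 (1.46), Camk2a (0.76), Syt7 (0.54) and Grik4 (0.29), and 4 as lower, Cck (−1.11), Slc30a3 (−0.74), Npy (−0.73) and Rab3a (−0.48), where 33.6% of all genes passed as higher and 32.8% as lower. With the length trend removed 1 of the 11 passed as higher and 2 as lower, where 54.2% of all genes passed and 26.7% as higher. Grik4 is also on the CA3 list and Drd1 on the striatum list used below. The values come from whole hippocampi and are not particular to granule cells.

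**Figure D5:**
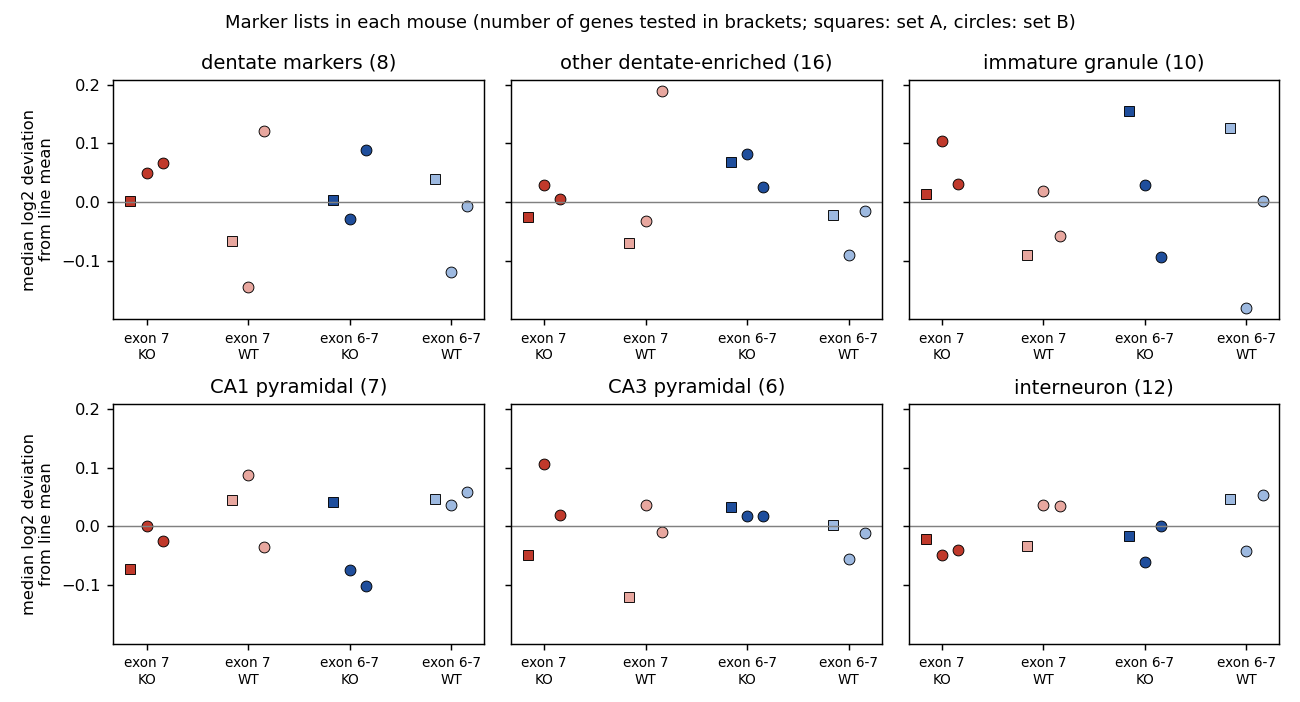
Median deviation of log2(scaled FPKM + 1) from the line mean (y axis) over the genes of a list in each mouse, by group (x axis), for the 8 markers, the 16 other dentate-enriched genes, 10 genes of immature granule cells, and markers of CA1, CA3 and interneurons. Medians of the 8 markers lie between −0.14 and 0.12, with the lowest and the highest mouse both among the exon 7 wild types.

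Markers of the other hippocampal neurons were set beside the granule cell markers. No gene of the lists for CA1 (7), CA2 (5, of which 4 tested), CA3 (6) and interneurons (12) passed in either knockout comparison, nor did the 5 mossy cell genes tested of 7. Of all genes 0% passed in exon 7 knockouts and 0.0209% in exon 6-7 knockouts. The median log2 fold change of the CA1 list was −0.08 in exon 7 knockouts and −0.12 in exon 6-7 knockouts. It was 0.03 and 0.05 in the same comparisons for CA3, 0.03 and −0.02 for CA2, −0.04 and −0.04 for interneurons, and 0.04 and −0.07 for mossy cells. In exon 6-7 knockouts 6 of the 7 CA1 genes lay below 0 and 1 above. The CA1 sums there were 188 to 200 scaled FPKM, against 210 to 215 in exon 6-7 wild types. In exon 7 knockouts 5 of the 7 lay below 0 and 2 above, and the sums of the genotypes overlapped. The part of CA1 cells in the marker values was not tested. Of the non-neuronal lists, 9 of 9 oligodendrocyte markers lay below 0 in both lines, with summed levels of 4793 to 5122 scaled FPKM in exon 7 knockouts against 5319 to 5485 in exon 7 wild types, and 4958 to 5086 in exon 6-7 knockouts against 5676 to 7038 in exon 6-7 wild types, and none passed. Their part in the marker values was not tested. None of the genes of the lists for astrocytes (median 0.14 and −0.02), microglia (−0.06 and −0.15), endothelium (−0.09 and −0.04), thalamus and habenula (0.11 and 0.12), striatum (0.02 and 0.10) or cortex and subiculum (−0.15 and 0.04) passed, the medians being those of exon 7 knockouts and then of exon 6-7 knockouts.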

How the data were processed

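Per the labels' protocols, poly(A) RNA of hippocampi was extracted with TRIZOL, made into TruSeq libraries and size-selected on a gel. Named in the submitters' processing notes, with no role or order, are CASAVA, Cufflinks, GSNAP and the build mm10. The authors deposited 1 FPKM value per gene and mouse, with Ensembl release 74 identifiers per the file headers. How multiple mapping was handled is not stated in the labels or files. FPKM values hold no read totals, so no counting error can be given, and the number of mice sets the precision.

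Unlisted genes were given 0. Median-of-ratios scaling used 12511 genes. The tests took genes whose mean reached 1 FPKM, on log2(scaled FPKM + 1), a scale that understates fold changes of low genes. The test was limma 3.58.1 (limma-trend, R 4.3.3), fitted with 4 group means and 1 spread from 12 libraries (8 residual degrees of freedom), two-sided, with Benjamini-Hochberg adjustment over 14328 genes at 0.05. The script was tested on simulated data. Single markers also had exact permutation tests. GENCODE M21 gave symbols (24065 of 24590 identifiers), coordinates and exon lengths, and RefSeq the promoters. Tables and plots used Python 3.11.15, pandas 2.3.3 and matplotlib 3.10.9. Between any 2 libraries no more than 0.00546% of the values were equal, so none was a copy.

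The markers and the 18 gene lists, which come from textbook knowledge, were chosen with earlier results of these data known. Named were all 8 markers, the dentate-enriched and immature genes that passed or otherwise the 3 with the smallest p, and the 5 genes most like the markers; Dcx, Prox1os and the genes of mossy fibre transmission are named outside this rule, chosen with their values known. One gene that the rule names is not reported here, but stays in the counts of its list. Results were recomputed with FPKM as deposited, TPM, quantile normalization, pseudocounts of 0.1 and 5, the filter dropped or set to 5 FPKM, array weights, robust empirical Bayes, each line alone, a library set term and each mouse left out; small RNA genes left out and the removal of the length trend by lowess were added after seeing the data.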

Additional observations from a re-analysis of the deposited data

How the results depend on the processing

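Numbers of genes called moved in these settings. For the exon 6-7 knockouts the 3 genes became 6 with no filter and 5 with each line fitted alone, and 2 to 8 with 1 mouse left out. For the exon 7 knockouts the 0 genes became 1 with a pseudocount of 0.1 and 1 with no filter, and 0 to 4 with 1 mouse left out. For the difference of the effects the 2 genes became 1 with a filter of 5 FPKM, 4 with a term for the library set and 1 without small RNA genes, and 2 to 5 with 1 mouse left out. For the mean effect the 3 genes became 6 with no filter, and 2 to 7 with 1 mouse left out. No granule cell marker passed in any of these 4 comparisons under any alternative run. For C1ql2 in the exon 7 line the difference was 0.41 to 0.60 (limma adjusted p 0.234 to 1), the highest without KO969.

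Differences near 0 changed sign in some settings, and the cause was not tested. In the exon 6-7 line Calb1 was at 0.0025 with FPKM as deposited, 0.036 with quantile normalization and 0.054 on the TPM scale, and at −0.11 to 0.11 with 1 mouse left out, and Trpc6 was at −0.098 to 0.12 with 1 mouse left out. In the exon 7 line Prox1 was at −0.014 with array weights, Dsp at 0.037 on the TPM scale and 0.021 without the length trend, and Plk5 at −0.0053 with a pseudocount of 5 and −0.015 without the length trend. With 1 mouse left out Prox1 was at −0.073 to 0.057, Dsp at −0.25 to 0.20, Lct at −0.28 to 0.075, Calb1 at −0.013 to 0.34 and Plk5 at −0.24 to 0.15. For the difference of the effects Prox1 was at −0.011 without the length trend and Calb1 at −0.34 to 0.011 with 1 mouse left out. The mean effects with 1 mouse left out were −0.0045 to 0.060 for Prox1, −0.0084 to 0.17 for Lct, −0.0072 to 0.17 for Calb1, −0.039 to 0.16 for Plk5 and −0.14 to 0.0016 for Trpc6.

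Between the wild types the number of calls stayed within 7392 to 10334, Prox1 and Dsp passed in 24 of 24 alternatives and C1ql2 in 23, and Lct passed in 19, Plk5 in 17 and Trpc6 in 15. Calb1 passed in 2 of 24 and Tdo2 in 1 of 23. Fitting each line alone gives no value for comparisons across lines, and Tdo2 has none with the filter of 5 FPKM. The wild types were littermates per the labels' protocols, but the sample titles name no litter. No pairing by litter was made, so the p-values take no account of litter. The FPKM values hold no depth, 3 mice a group limit what could be detected, and age, dissection and preparation of single mice are not in the labels.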
